A study of Mus musculus with 6 samples.

Results

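Transcripts of 10 genes that store, import and export iron, break down haem or bind haemoglobin and siderophores were examined in macrophages from mouse pancreatic tumours. The genes are Ftl1, Fth1, Slc40a1, Tfrc, Slc11a1, Slc11a2, Hmox1, Hp, Lcn2 and Cd163, 10 of the 53647 genes in the deposited table. They were selected by role and with the Cxcr4+ against Cxcr4- values of these same libraries already known, so the differences between the groups given for them are a description and carry no weight as a test. Of the 10, 9 had counts and passed the filter on low counts, and Cd163 had no count in any library.

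The cells came from orthotopic tumours, a model in which pancreatic ductal adenocarcinoma is established in the pancreas itself, in C57BL/6 mice, and the macrophages were sorted by the presence of the chemokine receptor Cxcr4. There were 3 libraries of Cxcr4+ cells and 3 of Cxcr4- cells, both from tumour-bearing animals, so no healthy pancreas or untreated group stands beside them. The labels enter Cxcr4 status as a genotype, although it describes the sorted cells. The sources used here do not give the implanted tumour line, the gates, the age and sex of the mice or the time after implantation. Nor is it stated whether the libraries of a group are separate mice, and p-values therefore measure the spread between these libraries, which may be technical.

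The libraries held 46444934 to 55740671 estimated counts, and 19457 to 20433 genes had a count. Of 14 macrophage markers 11 had a mean of at least 1 FPKM, with Lyz2 highest at 6344 ± 865 FPKM (fragments scaled to transcript length and library size, SD, n = 6) followed by Cd68 at 1115 ± 83.2 FPKM. The complement genes C1qa, C1qb and C1qc of that list were low, with means of 0.232, 0.321 and 0.140 FPKM. The groups did not overlap for C1qa and C1qb, which were higher in Cxcr4+ libraries. Mertk of the same list did not overlap in the other direction, at 1.79, 1.33 and 1.57 FPKM in the Cxcr4+ and 1.94, 2.02 and 1.88 in the Cxcr4- libraries. Cxcr4 RNA was 9.27 ± 0.285 FPKM in the Cxcr4+ libraries and 7.42 ± 1.32 in the Cxcr4- libraries (n = 3 each), a ratio of 1.25. Its groups did not overlap, at 9.05 to 9.59 against 5.97 to 8.56 FPKM, with a log2 fold change of 0.27 (SE 0.19). The sorted populations thus differed in the direction of the sort, but little, in the RNA of the gene they were sorted on. The libraries numbered 2 of both groups resembled each other: their counts differed by a chi-square per degree of freedom of 16.96, against 20.8 to 33.5 for pairs with 1 of them and 11.8 to 18.3 for pairs with neither. Values that move with these libraries are therefore given with and without them.

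Iron enters most cells bound to transferrin, through the transferrin receptor Tfrc, and leaves the endosome through the divalent metal transporter Slc11a2. Inside the cell it is stored in ferritin, a shell built of heavy chains (Fth1), which oxidise iron, and light chains (Ftl1), which help to form its mineral core. Macrophages also take in iron as haem from dying red cells, open the haem ring with haem oxygenase (Hmox1) and return the iron to plasma through ferroportin (Slc40a1), the sole known iron exporter of mammalian cells. Iron is also withheld from microbes, by Slc11a1, which pumps metal out of the phagosome, and by lipocalin 2 (Lcn2), which captures bacterial siderophores. Haptoglobin (Hp) binds free haemoglobin, and Cd163 is the macrophage receptor that takes up the complex.

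Several of these transcripts are themselves read by the iron supply. Iron regulatory proteins bind a hairpin called the iron-responsive element when iron is scarce: in a 5′ untranslated region this blocks translation, and in the 3′ untranslated region of Tfrc it protects the messenger from decay. The hairpins found in 4 members are printed here. They separate genes whose protein output can be set without a change of RNA (Fth1, Ftl1, Slc40a1) from Tfrc, whose RNA level itself follows the iron supply. Each hairpin is 29 bases of the sense strand of a GENCODE M21 mouse transcript, 5′ to 3′, with the 6-base loop in capitals.
Fth1, 5′ untranslated region: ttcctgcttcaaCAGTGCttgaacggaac
Ftl1, 5′ untranslated region: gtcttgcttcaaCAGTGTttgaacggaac
Slc40a1, 5′ untranslated region: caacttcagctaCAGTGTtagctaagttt
Tfrc, 3′ untranslated region, first: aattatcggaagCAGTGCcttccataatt
Tfrc, 3′ untranslated region, next: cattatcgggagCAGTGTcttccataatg
Tfrc, 3′ untranslated region, next: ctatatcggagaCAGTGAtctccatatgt
Tfrc, 3′ untranslated region, last: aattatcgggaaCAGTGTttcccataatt

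The pattern searched was the loop CAGTGN with any last base but G, flanked by a stem of 5 base pairs with G-T pairs allowed and preceded by an unpaired C. It was searched on the sense strand of coding transcripts. The loops start at base 99 of the Fth1 transcript, base 90 of Ftl1 and base 102 of Slc40a1, and at bases 3327, 3706, 3771 and 3818 of the Tfrc transcript, which is 4890 bases long. The pattern was found in 4 of the 10 members. Among all 21877 coding genes searched, 222 (1.01%) held it anywhere, 0.105% in the 5′ untranslated region and 0.457% in the 3′ untranslated region. The other 6 members, Slc11a2 among them, did not hold these letters, which says nothing about other forms of the element. A match is a description of sequence, and no binding was measured.

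The members spanned more than 3 orders of magnitude in level, and the order was led by ferritin and haem oxygenase. Ftl1 stood highest at 5781 ± 1171 FPKM (SD, n = 6), followed by Fth1 at 2736 ± 118, and their ranges did not overlap. Fth1 had more counts than Ftl1 in every library, so the order of these chains rests on the scaling to length. Hmox1 at 744 ± 63.3 and Lcn2 at 591 ± 195 FPKM came next, with overlapping ranges. Slc11a1 (47.0 ± 1.61) and Tfrc (23.2 ± 3.06) followed, and Slc11a1 overlapped no other member, while the range of Tfrc (20.4 to 28.6) overlapped that of Hp (10.39 to 24.72) but not that of Slc11a2. Slc11a2 (17.3 ± 1.59) and Hp (16.6 ± 5.86) overlapped, Slc40a1 stood at 1.07 ± 0.306 FPKM, and Cd163 was listed at 0. Together the members made up 2.12 to 2.64% of a library's counts. Storage and breakdown transcripts were thus high in these cells, while the exporter was the lowest of the members with counts.

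**Figure D1:**
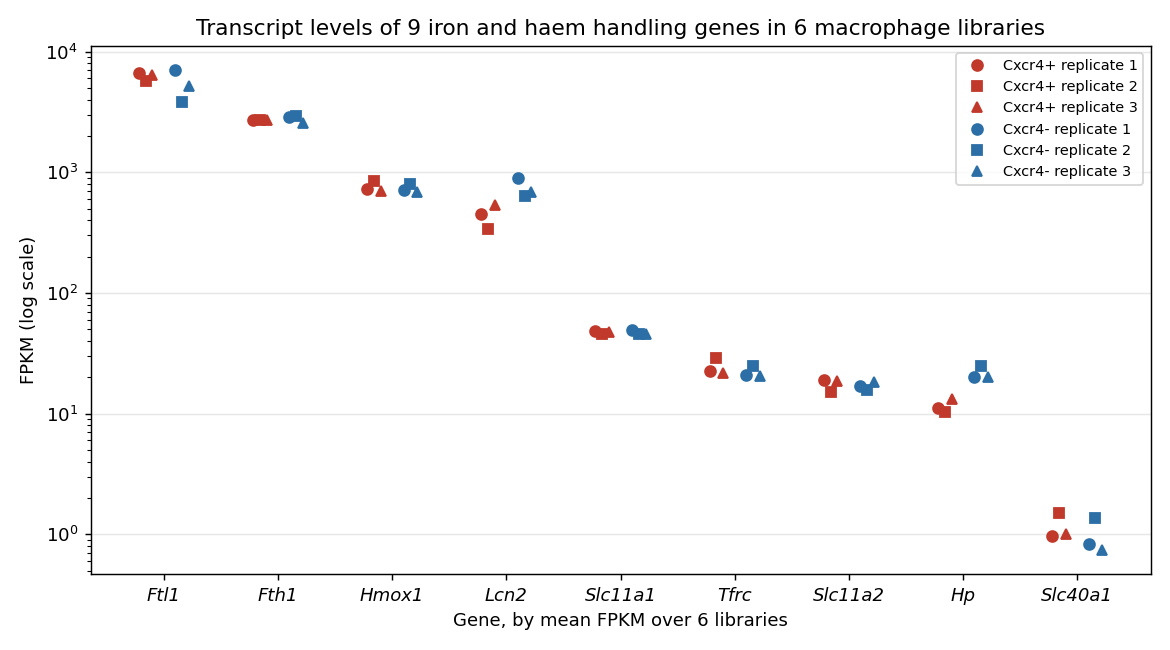
FPKM (log scale) of the 9 members with counts, ordered by their mean over the 6 libraries, with red symbols for Cxcr4+ libraries, blue for Cxcr4- and the symbol shape for the replicate number. Ftl1 and Fth1 lie between 2573 and 7042 FPKM in every library, Slc40a1 lies between 0.738 and 1.51, and Hp and Lcn2 are the members whose red and blue symbols do not overlap.

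In the comparison of Cxcr4+ with Cxcr4- macrophages, Hp and Lcn2 were the members whose groups did not overlap, both with lower values in the Cxcr4+ libraries. The other 7 tested members had fitted log2 fold changes between -0.04 and 0.25. None of the 9 tested members passed an adjusted p of 0.05 in edgeR's quasi-likelihood test, in either direction, and 2 of 9, Hp and Lcn2, had an unadjusted p under 0.05, as did 777 of the 16031 genes tested. Over all genes tested the same rule called 0.0125% higher and 0.0187% lower in Cxcr4+ cells. Groups that did not overlap in FPKM were found for 2 of 9 members in the lower direction and 0 of 9 in the higher. Over all genes tested 4.87% did not overlap in the lower direction and 5.5% in the higher. DESeq2 called 1 of the 9 members, Hp, lower, where it called 0.249% of its 14466 genes lower, and limma-trend on log2(FPKM + 1) called 0 of 9. These counts are a description, since this contrast was known when the members were chosen. The median log2 fold change of the 9 was 0.05, beside 0.0004 over all genes tested.

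**Figure D2:**
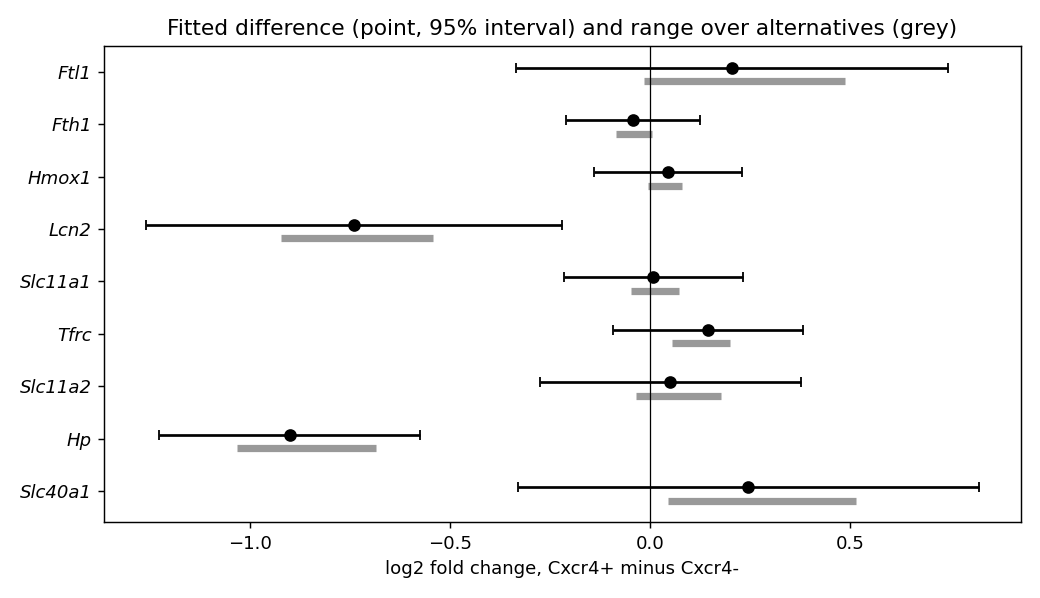
Log2 fold change, Cxcr4+ minus Cxcr4-, of the 9 tested members, in the order of their level, with the edgeR estimate and its 95% interval in black and the range over the alternative settings in grey. The intervals of Hp and Lcn2 lie below 0 and those of the other 7 members span 0.

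Haptoglobin, the plasma scavenger of free haemoglobin that myeloid cells also make, is encoded by Hp (ENSMUSG00000031722, GRCm39 chromosome 8, 110301760 to 110305804, minus strand). Hp stood at 11.03, 10.39 and 13.27 FPKM in Cxcr4+ libraries 1, 2 and 3, and at 19.96, 24.72 and 20.30 FPKM in Cxcr4- libraries 1, 2 and 3. Every Cxcr4- library lay above every Cxcr4+ library, with replicate 3 the highest of the Cxcr4+ group and replicate 2 the highest of the Cxcr4- group. These values rest on 980 to 1257 counts (Cxcr4+) and 1708 to 2217 counts (Cxcr4-). Since 1 fragment can be several counts, the share of counting error in the spread between libraries was not measured. The group means were 11.6 ± 1.51 and 21.7 ± 2.65 FPKM (SD, n = 3 each), a fitted log2 fold change of -0.90 (SE 0.14, 95% interval -1.23 to -0.58), or a level in Cxcr4- cells 1.87 times that in Cxcr4+ cells. The adjusted p was 0.332 in the edgeR quasi-likelihood fit and 2.12e-05 in DESeq2 at the same fold change, so the call depends on the tool. With the libraries numbered 2 left out of both groups the log2 fold change was -0.74.

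Lipocalin 2, a small secreted protein that binds bacterial siderophores and is made by activated macrophages, neutrophils and epithelia, is encoded by Lcn2 (ENSMUSG00000026822, GRCm39 chromosome 2, 32274645 to 32277809, minus strand). Lcn2 stood at 450, 342 and 538 FPKM in Cxcr4+ libraries 1, 2 and 3, and at 897, 630 and 687 FPKM in Cxcr4- libraries 1, 2 and 3. The groups did not overlap, with the highest Cxcr4+ value (replicate 3) below the lowest Cxcr4- value (replicate 2). The means were 443 ± 98.1 and 738 ± 140 FPKM (SD, n = 3 each), and the fitted log2 fold change was -0.74 (SE 0.22, 95% interval -1.26 to -0.22). Its adjusted p was 0.953 in the edgeR fit and 0.149 in DESeq2. Leaving out the libraries numbered 2 gave -0.69, and leaving out Cxcr4- replicate 1 gave -0.54.

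Hp and Lcn2 differ in scale: in FPKM, Lcn2 was 25.5 to 44.9 times as high as Hp in the same library. Their order over the libraries also differed. Cxcr4- replicate 1 had the highest Lcn2 and the lowest Hp of its group, while Cxcr4- replicate 2 had the highest Hp and the lowest Lcn2. In the Cxcr4+ group replicate 2 was lowest and replicate 3 highest for both genes.

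**Figure D3:**
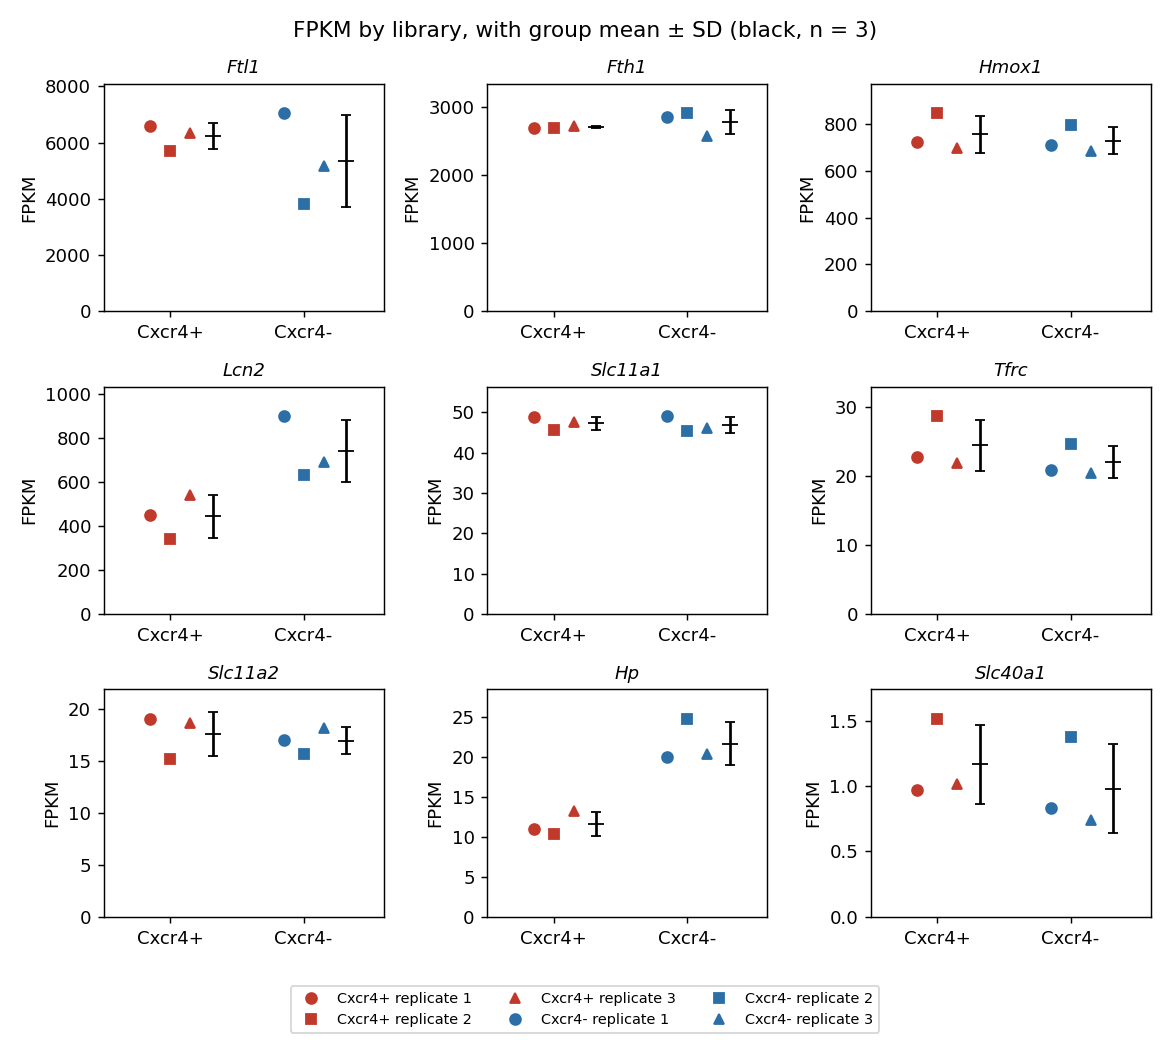
FPKM of each member with counts by library (linear axes from 0), with the group mean ± SD in black (n = 3). Hp and Lcn2 are separated by group, Slc40a1, Tfrc and Hmox1 are highest in the libraries numbered 2 (squares) of both groups, and Ftl1 is lowest in Cxcr4- replicate 2.

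Other cell types also make Hp and Lcn2, and markers of some of them were read in the same libraries. In bulk RNA, fewer cells of a type and less RNA per cell cannot be told apart. The 14 epithelial and tumour markers summed to 1.87, 3.27 and 3.44 FPKM for Cxcr4+ cells, replicates 1, 2 and 3, and to 3.69, 6.30 and 6.60 for Cxcr4- cells, so this list did not overlap between the groups either. Of its 14 genes 9 were tested, all 9 had a negative log2 fold change (median -1.02) and 0 were called. Epcam, the epithelial adhesion molecule, was 0.144 to 0.431 FPKM in the Cxcr4+ and 0.440 to 0.740 in the Cxcr4- libraries, and Tff1 and Tff2 were at 0. Krt8, an epithelial keratin, was 0.704 ± 0.378 against 1.20 ± 0.555 FPKM, with overlapping groups. The part of epithelial cells in the Hp and Lcn2 values was not tested.

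Neutrophils store haptoglobin and lipocalin 2 in their granules. The 18 neutrophil markers summed to 23.0 to 29.9 FPKM for Cxcr4+ and 27.2 to 35.6 for Cxcr4- cells, which overlapped. Of these, 5 were tested, 1 with a positive and 4 with a negative log2 fold change (median -0.24), and 0 were called. Most of the sum came from Mmp9, a gelatinase also made by macrophages (18.3 ± 2.38 against 22.1 ± 3.04 FPKM), and S100a8, a calcium-binding protein of myeloid cells (6.02 ± 1.73 against 7.12 ± 1.37). Cxcr2, a chemokine receptor of neutrophils, did not overlap between the groups, at 0.0577, 0.229 and 0.177 FPKM against 0.297, 0.847 and 0.336. It was lower in the Cxcr4+ libraries and rests on 12 to 145 counts. Csf3r, on the same list, was higher on average in the Cxcr4+ libraries, at 1.31 ± 0.114 against 1.21 ± 0.146 FPKM, with overlapping groups. In all 6 libraries 6 of the 18 were at 0: Ngp, Camp, Ctsg, Fcnb, S100a9 and Mrgpra2b. The granule gene Prtn3 had 12 to 41 counts in every library, Elane, Mpo and Mmp8 had at most 6 counts, and Ly6g was at most 0.331 FPKM. Stfa2l1 was 0.149 ± 0.147 against 0.438 ± 0.258 FPKM, with overlapping groups. The 9 hepatocyte and acute-phase markers, from the main source of plasma haptoglobin, summed to 0.952 to 1.25 FPKM against 1.02 to 1.65, with overlapping ranges and 0 of 3 tested genes called. The part of these cells in the Hp and Lcn2 values was not tested.

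**Figure D4:**
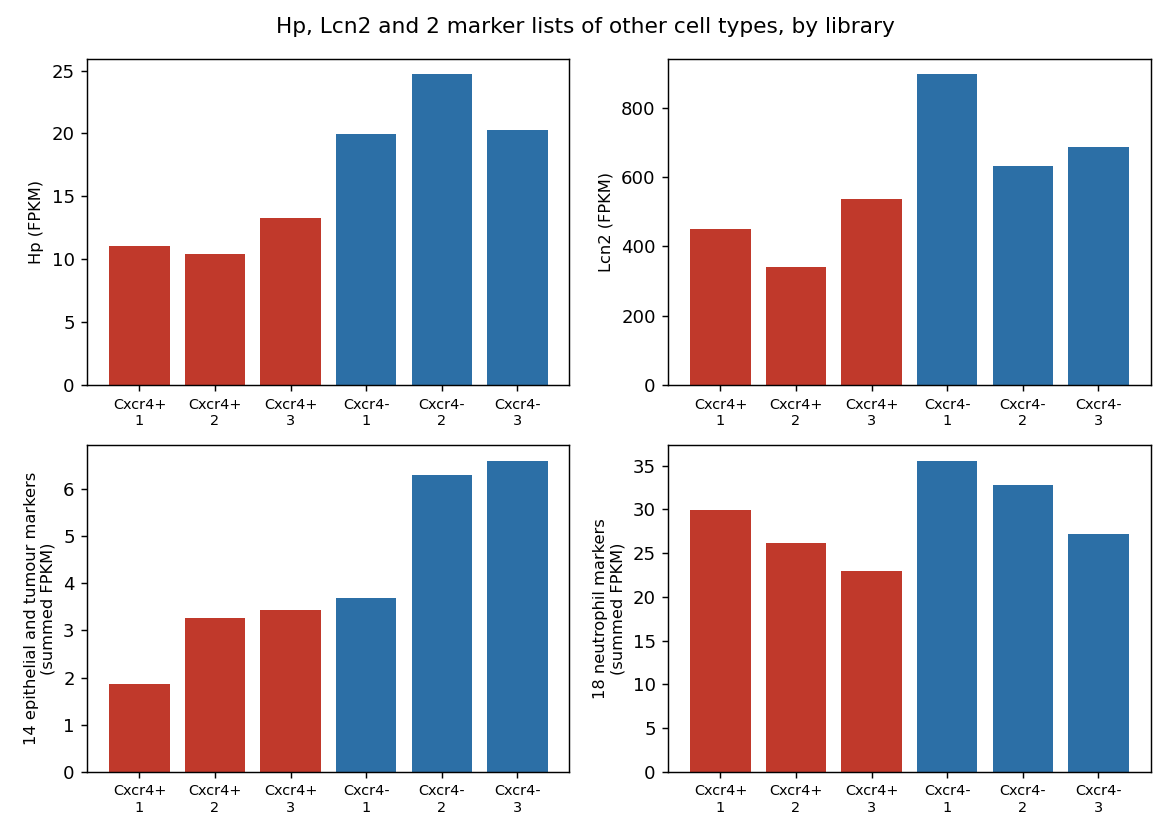
FPKM of Hp and Lcn2 and summed FPKM of the epithelial and neutrophil marker lists in each library (bars from 0, red for Cxcr4+ and blue for Cxcr4-). Hp, Lcn2 and the epithelial sum separate the groups, and the neutrophil sum does not.

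The ferritin chains were among the most abundant transcripts of these macrophages, Ftl1 ranking 7 to 12 and Fth1 15 to 18 by FPKM among all genes of a library. Fth1 (ENSMUSG00000024661, chromosome 19, 9957962 to 9962456, plus strand) was 2688, 2689 and 2722 FPKM in Cxcr4+ libraries 1, 2 and 3 and 2844, 2901 and 2573 in the Cxcr4- libraries. The groups overlapped, with the Cxcr4+ values inside the range of the Cxcr4- values. The fitted log2 fold change was -0.04 (SE 0.07) and its 95% interval, as a ratio of Cxcr4+ to Cxcr4-, reached from 0.864 to 1.09.

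Ftl1 (ENSMUSG00000050708, chromosome 7, 45107368 to 45109308, minus strand) was 6606, 5701 and 6354 FPKM in Cxcr4+ libraries 1, 2 and 3 and 7042, 3809 and 5176 in the Cxcr4- libraries. The highest and the lowest value were both in the Cxcr4- group, and the 3 Cxcr4+ libraries lay between them. The log2 fold change was 0.20 (SE 0.23, 95% interval -0.34 to 0.74). It rests on single libraries: leaving out Cxcr4- replicate 2 gave -0.01, and leaving out Cxcr4- replicate 1 gave 0.49.

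The mouse genome holds near-identical copies of the light chain, between which reads can be split. The copy Ftl1-ps1 had 5684 to 10728 counts, Ftl2-ps 395 to 1129 and Ftl1-ps2 18 to 42, beside 284895 to 558408 for Ftl1. With the 3 copies added to Ftl1, a setting chosen after the values were seen, the log2 fold change was 0.21. A gene on the opposite strand, Gm10252, shares 416 bases with Ftl1 and had 699 to 1665 counts. The sources used here do not say whether counting used strand, so its reads cannot be told from those of Ftl1, of which it would be a small share. The Fth1 copy Fth-ps2 had 4 to 16 counts.

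Ferritin shells differ between tissues in their make-up of heavy and light chains. At the RNA level the ratio of Fth1 to Ftl1 in FPKM was 0.407, 0.472 and 0.428 in Cxcr4+ libraries 1, 2 and 3 and 0.404, 0.762 and 0.497 in the Cxcr4- libraries. The ratio was below 1 in all 6 libraries, and the groups overlapped. The highest ratio was in Cxcr4- replicate 2, the library of lowest Ftl1. The means were 0.436 ± 0.0329 and 0.554 ± 0.186, a ratio of means of 0.786, or 0.967 without that library. In counts scaled to library size alone, the ratio of Fth1 to Ftl1 was above 1 in all 6 libraries, at 1.05 to 1.97. Which chain stood higher therefore depends on the deposited scaling to length. The transcripts whose hairpins are printed above are 929 bases for Fth1 and 968 for Ftl1. Scaled to these lengths instead, Fth1, the shorter, would stay above Ftl1 in all 6 libraries. The higher FPKM of Ftl1 thus comes from the lengths used in the deposited scaling.

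Haem oxygenase 1, the inducible enzyme that cleaves haem to biliverdin, carbon monoxide and iron, is encoded by Hmox1 (ENSMUSG00000005413, chromosome 8, 75820249 to 75827217, plus strand). Hmox1 was 725, 848 and 701 FPKM in Cxcr4+ libraries 1, 2 and 3 and 711, 796 and 687 in the Cxcr4- libraries. The groups overlapped and both were highest in the library numbered 2. The log2 fold change was 0.05 (SE 0.08, 95% interval -0.14 to 0.23).

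Blvra, the reductase that turns biliverdin into bilirubin in the next step, was 22.4, 29.7 and 24.6 FPKM in the Cxcr4+ and 19.0, 22.4 and 18.4 in the Cxcr4- libraries. Its groups only just separated, at 22.37 against 22.36 FPKM, and its log2 fold change of 0.35 (SE 0.11) did not pass the edgeR test (adjusted p = 0.953, unadjusted p = 0.0124). Hmox2, the constitutive haem oxygenase, stood at 22.5 ± 4.14 FPKM (n = 6), far below Hmox1, with a log2 fold change of -0.21 (SE 0.17).

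Cd163, the receptor for the complex of haptoglobin and haemoglobin (ENSMUSG00000008845, chromosome 6, 124281615 to 124307486, plus strand), had 0 counts in all 6 libraries. Such a zero allows up to 12 counts per library, or 0.215 to 0.258 CPM (counts scaled to library size), taking 3 fragments as the limit and 4 counts per fragment. No comparison between the groups can be made at this depth. Hp was thus measured in libraries in which no transcript of its receptor was detected. The receptor for the complex of haemopexin and haem, Lrp1, was 39.3 ± 5.14 FPKM, with overlapping groups (log2 fold change -0.13, SE 0.16). Slc48a1, which carries haem out of the lysosome, was 26.6 ± 2.46 against 29.5 ± 4.49 FPKM, also with overlapping groups.

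Cd163 belongs with a set of macrophage genes that was mostly low here. Of 13 genes listed for red-pulp, iron-recycling and other macrophage subsets, Spic, Timd4, Vsig4 and Clec4f were also at 0 in all libraries, and 3 had a mean of at least 1 FPKM. The list summed to 81.1 to 93.0 FPKM in the Cxcr4+ and 70.6 to 83.5 in the Cxcr4- libraries, which overlapped. Most of the sum came from Gpnmb (43.7 ± 1.68, n = 6) and Siglec1 (30.3 ± 6.77), so it does not measure iron-recycling cells. Trem2, also above 1 FPKM, did not overlap, at 7.97, 6.88 and 7.23 FPKM in the Cxcr4+ and 5.33, 4.82 and 5.32 in the Cxcr4- libraries. Of the list's 5 tested genes 4 had a positive log2 fold change and 0 were called. The 11 erythroid markers did not overlap between the groups, with sums of 3.89 to 5.93 FPKM for Cxcr4+ and 3.04 to 3.15 for Cxcr4- libraries, and their part in the haem genes' values was not tested. Most of this was Tal1, a transcription factor of several blood lineages, at 3.607 ± 0.5004 against 2.59 ± 0.121 FPKM (n = 3 each). Tal1 was the only gene of the 11 whose groups did not overlap in FPKM. Of the 11 genes 4 were tested, 2 with a positive and 2 with a negative log2 fold change (median 0.03), and 0 were called. The alpha globin Hba-a1 was at most 0.846 FPKM, with overlapping groups.

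The transferrin receptor was 22.7, 28.6 and 21.9 FPKM for Tfrc (ENSMUSG00000022797, chromosome 16, 32427738 to 32451612, plus strand) in Cxcr4+ libraries 1, 2 and 3 and 20.9, 24.6 and 20.4 in the Cxcr4- libraries. The groups overlapped and each was highest in the library numbered 2. The log2 fold change was 0.15 (SE 0.10, 95% interval -0.09 to 0.38), and 0.05 with Cxcr4+ replicate 2 left out.

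Slc11a2, the endosomal iron transporter (ENSMUSG00000023030, chromosome 15, 100285779 to 100321973, minus strand), was 19.0, 15.2 and 18.6 FPKM in Cxcr4+ libraries 1, 2 and 3 and 17.03, 15.63 and 18.16 in the Cxcr4- libraries. The groups overlapped, and here the libraries numbered 2 were the lowest of each group. The log2 fold change was 0.05 (SE 0.14, 95% interval -0.28 to 0.38). A gene on the opposite strand within it, Gm5475, had at most 12 counts.

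Slc11a1, the phagosomal transporter also called Nramp1 (ENSMUSG00000026177, chromosome 1, 74414354 to 74425211, plus strand), was 48.7, 45.6 and 47.5 FPKM in Cxcr4+ libraries 1, 2 and 3 and 49.0, 45.3 and 46.1 in the Cxcr4- libraries. It was the steadiest member, with a coefficient of variation of 3.41% over the 6 libraries, and the groups overlapped almost completely. The log2 fold change was 0.01 (SE 0.10, 95% interval -0.22 to 0.23). In the deposited FPKM, Slc11a1 was 2.54 to 3.01 times as high as its relative Slc11a2.

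Ferroportin, the exporter, was the lowest of the members with counts. Slc40a1 (ENSMUSG00000025993, chromosome 1, 45947228 to 45965683, minus strand) was 0.968, 1.51 and 1.01 FPKM in Cxcr4+ libraries 1, 2 and 3 and 0.830, 1.37 and 0.738 in the Cxcr4- libraries, from 351 to 800 counts. The groups overlapped, and the library numbered 2 was the highest of each. The log2 fold change was 0.25 (SE 0.25, 95% interval -0.33 to 0.82). Leaving out Cxcr4+ replicate 2 gave 0.06, and leaving out Cxcr4- replicate 2 gave 0.52. Per length, the importer Tfrc was 17.9 to 27.6 times as high as the exporter. Hamp, the gene for the hormone hepcidin that degrades ferroportin, had at most 6 counts in a library.

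For 5 members the libraries separated by their number and not by Cxcr4 status. The 2 libraries numbered 2 lay above the other 4 for Slc40a1 (a ratio of mean FPKM of 1.63), Tfrc (1.24) and Hmox1 (1.16), and below the other 4 for Slc11a2 (0.846) and Slc11a1 (0.951). Such a pattern was common: 26.2% of all genes tested lay above and 9.74% below in both libraries numbered 2. The 4 remaining tested members, Ftl1, Fth1, Hp and Lcn2, overlapped. With the libraries numbered 1 and 3 alone, the log2 fold changes between the sorted groups were 0.33 for Slc40a1, 0.10 for Tfrc, 0.02 for Hmox1, 0.07 for Ftl1, 0.09 for Slc11a2, 0.0078 for Slc11a1 and -0.01 for Fth1. What the replicate numbers stand for is not given in the labels.

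The members were read beside 97 further genes of iron and haem metabolism, listed by role in 9 groups. Of these, 75 were tested, and edgeR called 0 higher and 0 lower in Cxcr4+ cells. Their log2 fold changes were positive for 33 and negative for 42, with a median of -0.02, against 0.0004 over all genes tested. In all, 3 of the 75 had an unadjusted p under 0.05: Blvra, Abcb8 and Lrp2.

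Iron uptake and endosomal transport had 11 tested genes of 14, with 5 positive and 6 negative. Its most abundant gene, Snx3, which recycles the transferrin receptor, was 116 ± 5.14 FPKM (n = 6) with a log2 fold change of -0.03 (SE 0.09). Steap3, the ferrireductase of the transferrin endosome, was 2.99 ± 1.07 against 2.11 ± 1.31 FPKM, a difference smaller than its spread. Slc39a14, which imports iron not bound to transferrin, was 3.46 ± 0.201 against 3.78 ± 0.363 FPKM. In the export and systemic control list 3 of 10 genes were tested. Cp, the plasma ferroxidase that works with ferroportin, was 6.39, 6.27 and 6.60 FPKM in the Cxcr4+ and 6.60, 7.17 and 7.72 in the Cxcr4- libraries, separate by a narrow margin, with a log2 fold change of -0.16 (SE 0.10, adjusted p = 0.999 in the edgeR fit).

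Ferritin handling genes had 6 tested of 9, with 1 positive and 5 negative. Pcbp1, the chaperone that delivers iron to ferritin, was 132 ± 6.44 FPKM with a log2 fold change of -0.03 (SE 0.08). Bola2, a partner in cytosolic iron chaperoning, was 14.8 ± 0.786 against 16.4 ± 1.09 FPKM, and Herc2, the ligase that turns over Ncoa4, 5.17 ± 0.496 against 6.05 ± 0.476, and the groups overlapped for both. Ncoa4, the receptor that carries ferritin to the lysosome, was 3.58 ± 1.53 against 2.89 ± 1.29 FPKM (log2 fold change 0.29, SE 0.43). All 6 iron regulatory genes were tested, and their log2 fold changes lay between -0.01 and 0.09. Among them Aco1 (iron regulatory protein 1) was 6.67 ± 0.651 against 6.67 ± 0.882 FPKM and Ireb2 (iron regulatory protein 2) 6.49 ± 0.256 against 6.38 ± 0.208. These 2 were named after their values were seen, because they read the hairpins printed above. Fbxl5, the iron-sensing ligase that removes Ireb2, was 7.37 ± 0.317 against 6.88 ± 0.601 FPKM. Nfe2l2 and Bach1, the activator and the repressor of Hmox1 and ferritin transcription, had log2 fold changes of -0.01 (SE 0.11) and 0.06 (SE 0.20).

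Mitochondrial iron and iron-sulphur genes, all 17 tested, had 7 positive and 10 negative values. Slc25a37, mitoferrin 1, which brings iron into mitochondria, was 32.8, 33.7 and 32.8 FPKM in the Cxcr4+ and 36.5, 36.7 and 36.8 in the Cxcr4- libraries. The groups were separate with little spread inside either, and the fitted log2 difference was -0.15 (SE 0.08, adjusted p = 0.999 by edgeR). Abcb8, a mitochondrial transporter, was 3.63 ± 0.343 against 4.29 ± 0.295 FPKM (log2 fold change -0.25, SE 0.10). Iscu, the scaffold for iron-sulphur clusters, was 22.7 ± 6.70 against 30.1 ± 1.54 FPKM, with Cxcr4+ replicate 1 lowest at 15.3. Cisd1, an iron-sulphur protein of the outer membrane, was the most abundant of the list at 46.4 ± 4.20 FPKM (n = 6). Haem synthesis had 10 of 11 genes tested, 4 positive and 6 negative, and its most abundant gene was Clpx, which activates the first enzyme of the path, at 18.9 ± 0.984 FPKM. Slc25a38, the mitochondrial glycine carrier, was 6.23 ± 0.271 against 7.27 ± 1.20 FPKM. Uros and Urod, successive enzymes of the path, were 0.945 ± 0.320 against 1.19 ± 0.225 and 8.74 ± 2.33 against 7.33 ± 2.04 FPKM, and all 3 of these genes overlapped between the groups.

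Of the 7 partners of lipocalin and siderophores only 2 were tested. Slc22a17, the best known receptor for lipocalin 2, was 0.961 ± 0.0348 against 0.855 ± 0.393 FPKM, and Lrp2 (megalin), another, was at most 0.0724 FPKM. Lcn2 was thus 342 to 897 FPKM in cells whose transcripts for its receptors stood near or under 1 FPKM.

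**Figure D5:**
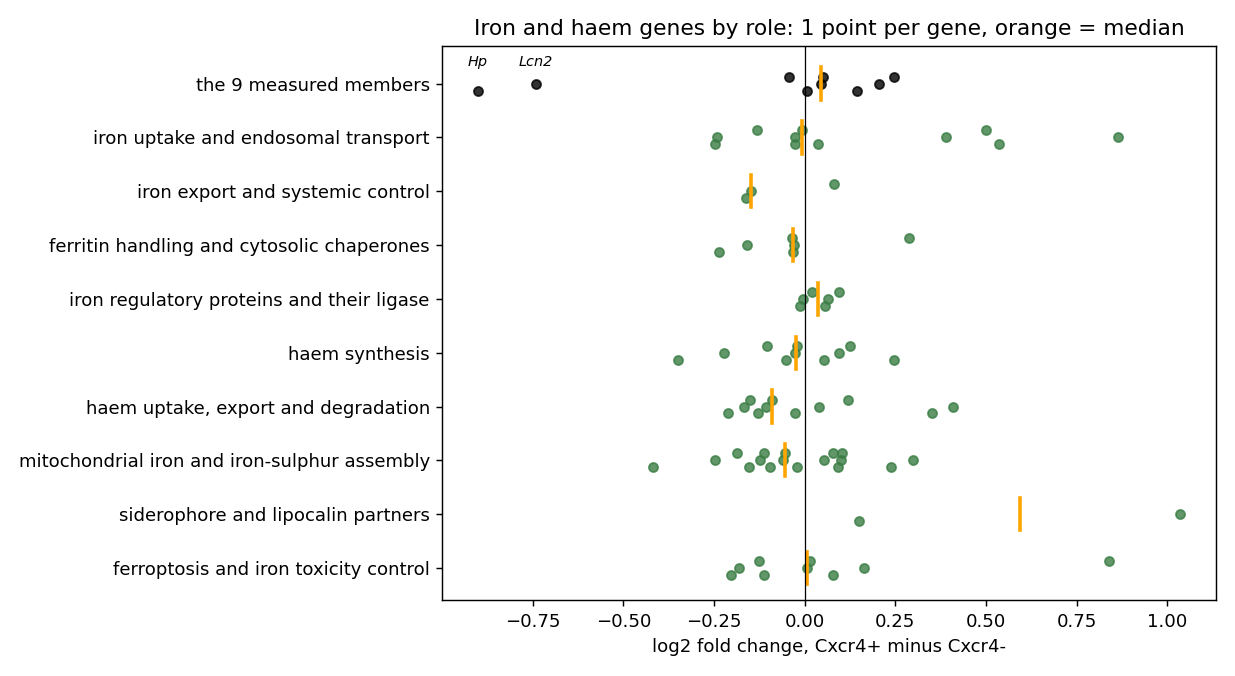
Log2 fold change, Cxcr4+ minus Cxcr4-, of the 9 tested members (black) and of 75 other iron and haem genes by role (green), 1 point per gene, with each list's median in orange. Hp and Lcn2 have the lowest values of all genes drawn, and none of the 75 other genes passed the test.

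The genes most like Hp and Lcn2 over the libraries were taken as those with the smallest root mean square difference of centred log2 CPM over the 6 libraries. They were sought among 9377 genes that were tested and averaged 1 FPKM or more. Members, predicted genes and pseudogenes were left out of these. For Hp these were Eif4h, a helper of the translation initiation helicase (difference 0.113), Hif3a, a hypoxia-inducible factor subunit (0.127), and Lgals4, a galectin of epithelial cells that is also on the epithelial list (0.151). Eif4h was 21.6, 23.8 and 25.1 FPKM in the Cxcr4+ and 43.53, 55.96 and 46.52 in the Cxcr4- libraries. Lgals4 was 0.589, 0.736 and 0.864 FPKM against 1.243, 1.765 and 1.502. For Lcn2 they were Ksr1, a scaffold of the MAP kinase path (0.1), Slc4a11, a membrane transporter (0.136), and Snord34, a small nucleolar RNA (0.154). Lcn2 itself differed from Hp by 0.269, more than any of these. Likeness over 6 libraries of 2 groups largely restates the group difference.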

How the data were processed

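RNA of 3 Cxcr4+ and 3 Cxcr4- macrophage samples was sequenced. The tools named are cutadapt, HISAT2 and StringTie and the build is GRCm39, per the submitters' processing notes. No version, counting setting or use of strand is given in the sources used here. Per gene, the authors deposited estimated counts and FPKM, scaled by them to length and library size, per the file headers. The counts were whole numbers, but among values from 1 to 20 the share divisible by 4 was 43.2% (25% if spread evenly), so 1 fragment can be several counts. A constant FPKM minimum where the count was 0 was read as 0. The limit set for a count of 0 was 3 fragments (12 counts) per library and covers counting error only.

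Counts were fitted with edgeR 4.0.16 (R 4.3.3): filterByExpr (minimum count 10, total 15), TMM, and the quasi-likelihood test with group as the only term. This kept 16031 genes, over which p-values were adjusted by Benjamini-Hochberg at 0.05. Standard errors are the absolute log2 fold change over the root of F, and 95% intervals used the fit's degrees of freedom. The test was tried on simulated counts first. Alternatives were other scalings, filters and pseudocounts (limma 3.58.1), DESeq2 1.42.0, a replicate block and leaving out libraries. Members and lists were chosen with earlier results of these data known. From each pathway list the text names genes past the threshold, the most abundant gene and up to 3 of smallest p with a mean of at least 1 FPKM, and from marker lists the 2 most abundant, except where a list is given by its sum alone. Genes printed beyond this rule, namely Hamp, Epcam, C1qa, C1qb, C1qc, Cxcr2, Prtn3, Elane, Mpo, Mmp8, Stfa2l1, Cbs, Alox15, Ly6g, Lrp2, Aco1 and Ireb2, were chosen for their role after the values were seen. Mertk and Trem2 were added after the values were seen, because their groups did not overlap. Csf3r was likewise added afterwards, because its mean went the other way from that of Cxcr2. Hairpins were searched in GENCODE M21 transcripts, from which no genome coordinates were taken.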

Additional observations from a re-analysis of the deposited data

How the results depend on the processing

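The 20 alternatives per member (21 for Ftl1) left every log2 fold change of Hp (-1.03 to -0.69), Lcn2 (-0.92 to -0.54), Tfrc and Slc40a1 in its direction. DESeq2 alone called a member, Hp (-0.90, adjusted p = 2.12e-05), and the adjusted p of Hp was 0.220 to 0.809 under the others. Leaving out 1 library at a time moved Ftl1 from -0.015 to 0.488, Fth1 from -0.086 to 0.0060, Slc11a1 from -0.049 to 0.073, Slc11a2 from -0.036 to 0.176 and Hmox1 from -0.0046 to 0.081. The cause was not tested.

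Over all genes, edgeR called 2 higher and 3 lower. DESeq2 called 27 higher and 36 lower, limma-trend on log2(FPKM + 5) 1 and 0, log2(FPKM + 1) 0 lower, log2(FPKM + 0.1) 1 lower, library totals alone 1 lower, and the bias-adjusted method and counts divided by 4 each 1 higher. Leaving out 1 library gave 0 to 5 higher and 0 to 4 lower. The cause was not tested. The replicate number as a block gave 0 higher and 0 lower (1495 genes with an unadjusted p under 0.05, against 777), Hp -0.91 (adjusted p = 0.357) and Lcn2 -0.75 (adjusted p = 0.431). Deviations of same-numbered libraries correlated at 0.061, 0.208 and 0.114 over 12587 genes, and those of unlike number at -0.156 to 0.0492. Every library thus correlated best with its own number. The numbers were not taken as pairs in the main fit because the labels give them no meaning.

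Of 23 named pathway genes 6 changed sign under some alternative and 0 were called. Leaving out 1 library gave Mcoln1 -0.052 to 0.019, Bmpr2 -0.0040 to 0.174, Ncoa4 -0.048 to 0.625, Keap1 -0.126 to 0.196 and Bach1 -0.128 to 0.204. With the libraries numbered 1 and 3 alone, Ncoa4 was -0.058, Keap1 -0.062, Bach1 -0.0028, Hmox2 0.0079 and the median of the pathway genes -0.038. That median was -0.047 to -0.013 over the fits without 1 library. The count multiples of 4 limit what low counts, such as those of Cd163 and Hamp, can show.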

Other observations

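A further list held 10 genes that limit or promote iron-driven lipid peroxidation, of which 8 had a mean of at least 1 FPKM and Cbs (0.0916 FPKM) and Alox15 (0.0032 FPKM) did not. Of the 10, 9 were tested, 5 with a positive and 4 with a negative log2 fold change (median 0.0061, beside 0.0004 over all genes tested), and edgeR called 0. Aifm2, a reductase that protects membranes from peroxidation, was 19.6, 18.9 and 20.6 FPKM in the Cxcr4+ and 23.6, 22.6 and 21.6 in the Cxcr4- libraries. Its groups did not overlap, and the log2 fold change of -0.20 (SE 0.10) had an adjusted p of 0.999 in the edgeR fit. Gch1, which starts the synthesis of the antioxidant tetrahydrobiopterin, was 5.60 ± 0.251 against 4.99 ± 0.505 FPKM. Slc3a2, the heavy chain of the cystine importer, was 51.8 ± 3.71 against 56.2 ± 1.57 FPKM. Sat1, a polyamine acetyltransferase, was the most abundant of the list at 217 ± 45.2 FPKM (n = 6), and its lowest values, 161 and 159 FPKM, were in the libraries numbered 2 of both groups.

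Markers of other cells were also summed. The 12 fibroblast markers summed to 3.62 to 17.96 FPKM in the Cxcr4+ libraries, with the highest value in replicate 1, and to 2.43 to 3.49 in the Cxcr4- libraries, without overlap, and their part in the members' values was not tested. The 10 acinar markers summed to at most 0.726 FPKM with 9 of the 10 at 0, and the 10 lymphocyte markers to at most 0.716. The 13 monocyte markers summed to 64.4 to 70.4 FPKM against 63.8 to 70.3.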
